A study of Mus musculus with 15 samples.

Results

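H3K27Ac regions that carried a peak in RD and in HFD islets and none in HFD-O304 islets numbered 932, out of 25452 H3K27Ac regions on chromosomes 1 to 19. Acetylation of lysine 27 on histone H3 (H3K27Ac) was mapped by ChIP-seq in pancreatic islets of adult CBA males given regular diet (RD), high-fat diet (HFD), or HFD formulated with the AMPK activator O304 (HFD-O304). Islets were pooled with about 600 per immunoprecipitation, and 2 replicates per diet were merged by the authors before peaks were called, which left 1 peak list per diet. Peaks of the 3 lists that shared at least 1 bp were joined into 1 region, and the members were all regions with an RD peak, an HFD peak and no HFD-O304 peak. They made up 3.66% of all regions, and 6.71% of the 13882 regions that had a peak in RD and in HFD.

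H3K27Ac is deposited by acetyltransferases such as p300 and CBP and marks active promoters and enhancers. H3K27Me3, trimethylation of the same residue by the Polycomb complex PRC2, marks repressed genes, and the 2 modifications exclude each other on a given histone tail. In β-cells, H3K27Ac covers the promoters and distal elements of genes for hormone processing, glucose sensing and exocytosis. AMPK is a kinase that responds to low cellular energy and, among many substrates, phosphorylates regulators of chromatin and lipid metabolism.

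The lists rested on 83773042 RD, 95218072 HFD and 84694188 HFD-O304 fragments for H3K27Ac. Because each diet had 1 list, the spread between replicates is unknown, no test between diets could be made, and intervals below are 95% Wilson intervals that cover counting error over regions only. A missing peak means that the region did not reach the calling limit, which lay at a fold enrichment of 2.25 over the uniform background in the HFD-O304 list, 2.28 in the RD list and 2.17 in the HFD list. H3K27Ac peaks at the promoters of endocrine islet markers were found for 6 of 11 genes with RD, for 7 with HFD and for 6 with HFD-O304. None of the 6 acinar, 4 endothelial, 4 macrophage and 4 fibroblast markers had one in any diet, whereas 1, 1 and 2 of 4 ductal markers did.

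The sequences of 4 members are shown because they lie at genes with a defined role in insulin secretion or at the strongest promoter of the set. They are GRCm38 reference bases (C57BL/6J, not the CBA animals studied), read 5′ to 3′ on the strand of the gene, and capitals mark matches to the short motifs described further below. The Ins1 stretch is part of the coding exon (chr19:52264636-52264935), the Abcc8 stretch spans an exon and the intron that follows it (chr7:46151349-46151648, minus strand), the Adra2a stretch lies upstream of the gene (chr19:54040429-54040728) and the Zfyve1 stretch lies downstream of the main start sites, outside annotated coding sequence (chr12:83596651-83596950, minus strand).
Ins1: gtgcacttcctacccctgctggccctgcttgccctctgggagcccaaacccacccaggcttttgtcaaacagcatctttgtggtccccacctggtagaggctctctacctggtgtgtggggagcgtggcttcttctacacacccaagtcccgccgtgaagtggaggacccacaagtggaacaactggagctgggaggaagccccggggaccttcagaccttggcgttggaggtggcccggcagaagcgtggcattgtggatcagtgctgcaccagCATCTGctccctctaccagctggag
Abcc8: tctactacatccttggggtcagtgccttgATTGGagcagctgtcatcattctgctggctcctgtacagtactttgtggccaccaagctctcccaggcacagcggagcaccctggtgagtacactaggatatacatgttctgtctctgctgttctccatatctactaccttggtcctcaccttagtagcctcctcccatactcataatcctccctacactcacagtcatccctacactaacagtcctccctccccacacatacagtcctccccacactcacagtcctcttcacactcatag
Adra2a: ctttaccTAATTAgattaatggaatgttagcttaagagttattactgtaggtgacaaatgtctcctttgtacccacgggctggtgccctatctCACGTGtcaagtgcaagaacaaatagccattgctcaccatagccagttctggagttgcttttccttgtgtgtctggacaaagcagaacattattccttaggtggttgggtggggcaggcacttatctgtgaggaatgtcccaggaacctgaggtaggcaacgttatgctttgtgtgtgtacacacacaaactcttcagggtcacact
Zfyve1: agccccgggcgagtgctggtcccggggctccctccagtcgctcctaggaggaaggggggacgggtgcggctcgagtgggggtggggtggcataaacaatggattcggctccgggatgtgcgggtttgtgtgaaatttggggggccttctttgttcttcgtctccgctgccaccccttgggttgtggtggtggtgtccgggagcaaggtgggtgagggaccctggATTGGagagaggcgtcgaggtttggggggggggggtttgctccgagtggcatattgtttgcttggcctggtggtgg

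Most members were weak peaks. The enrichment of each peak is given as −log10 q. The strength of a region is the lowest −log10 q among the diets in which it had a peak. For the members this is the lower of RD and HFD. For regions in all 3 diets it is the lowest of 3 values, which can only make their strength smaller. Median strength was 2.93 in the members and 5.13 in the 12950 regions present in all 3 diets, and 511 members lay between 2 and 3, 335 between 3 and 5 and 86 at 5 or more. The median fold enrichment was 2.49 in RD and 2.43 in HFD. The HFD fold lay below the lowest HFD-O304 fold in 104 members, which the lower limit of the deeper HFD list allows. At the other end, 19 members had RD and HFD folds of at least 3.04, the median HFD-O304 fold of regions in all 3 diets. The members were also short, with a median of 622 bp against 1346 bp. Both traits were shared by other regions missing from at least 1 diet. The median length and strength were 632 bp and 2.75 for RD and HFD-O304 without HFD, and 856 bp and 2.92 for HFD and HFD-O304 without RD. They were 357 bp and 2.94 for RD alone, 434.5 bp and 2.87 for HFD alone, and 433 bp and 2.81 for HFD-O304 alone.

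**Figure D1:**
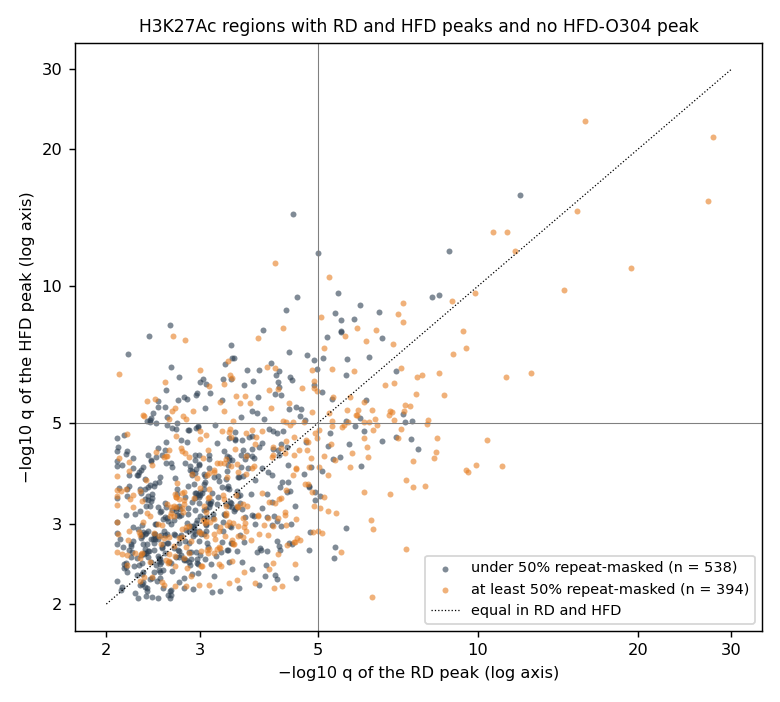
Each point is 1 of the 932 members, placed by the −log10 q of its RD peak (x, log axis) and of its HFD peak (y, log axis), with grey lines at 5 and a dotted line of equality. Most points sit below 5 on both axes, and the strongest lie at 27.7 and 21.3 (near Mup7).

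Since the members were defined by these lists, the strength is a description of the choice and not a result. The weakest members show where it ends. A region in an intron of Hivep3 had −log10 q values of 2.29 in RD and 2.07 in HFD, and regions at Csnk1e and Ahnak2 had HFD values of 2.06. Just outside, the 3 regions of all diets with the weakest HFD-O304 peaks, near Tbx18, 4933428G20Rik and Gpr158, had an HFD-O304 −log10 q of 2.12.

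How often a region of RD and HFD lacked HFD-O304 fell with strength, taken here as the lower −log10 q of the pair of diets named. Among regions with under 50% repeat-masked bases it was 18.1% at a strength of 2 to 3, 4.56% at 3 to 5 and 0.416% (27 of 6497, 0.286 to 0.604%) at 5 or more. The reciprocal pattern, RD and HFD-O304 without HFD, gave 13.7%, 2.47% and 0.237% (0.144 to 0.391%). HFD and HFD-O304 without RD gave 60.5%, 25.0% and 2.57%. In these regions and at a strength of 5 or more, the intervals for loss from HFD-O304 and for loss from HFD overlapped, and both lay below that for loss from RD. In repeat-rich regions, those with at least 50% repeat-masked bases, the shares lacking HFD-O304 were 38.6%, 26.9% and 8.81% (6.89 to 11.2%). At 2 to 3 and at 3 to 5, 19.8% and 13.4% of the repeat-rich regions lacked HFD, and 49.5% and 27.7% lacked RD. The order of the diets differed there only at 5 or more, where 5.85% (4.28 to 7.97%) lacked HFD and 4.35% (3.03 to 6.21%) lacked RD. In that band the intervals for loss from HFD-O304 and for loss from HFD overlapped.

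**Figure D2:**
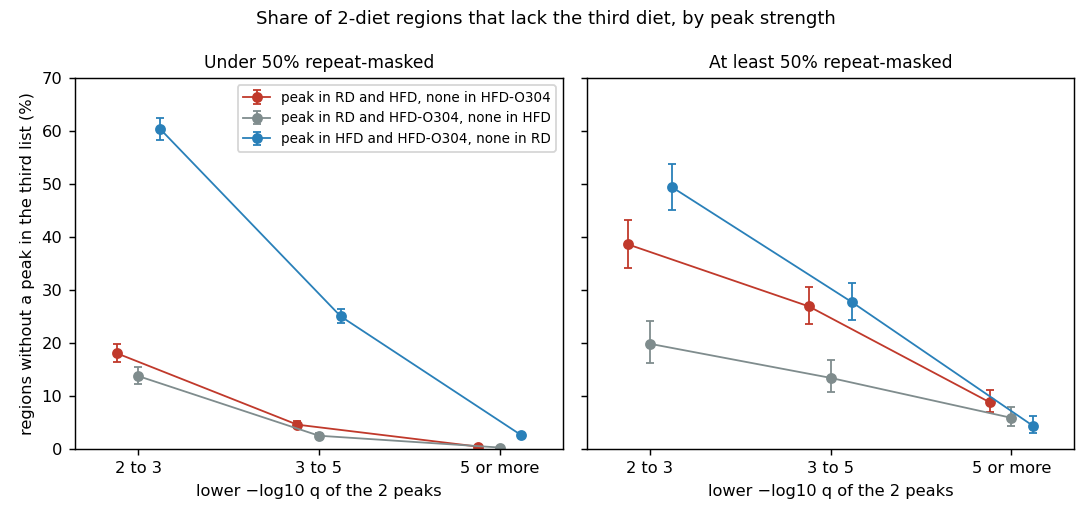
Share of regions present in 2 diets that lacked a peak in the third diet (y, percent), by the lower −log10 q of the 2 peaks (x), for regions with under 50% (left) and at least 50% (right) repeat-masked bases; bars are 95% Wilson intervals. All 6 lines fall with strength, and the members (red) reach 0.416% on the left and 8.81% on the right at 5 or more.

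The members were mainly distal. Only 169 of 932 (18.1%, 15.8 to 20.7%) lay within 1000 bp of the start site of a protein-coding transcript, against 69.8% of the regions in all 3 diets and 45.3% of all regions. Other regions missing from at least 1 diet were also mostly away from promoters, with 23.3% (20.0 to 27.1%) at promoters for RD and HFD-O304 without HFD, 35.1% for HFD and HFD-O304 without RD and 9.68% for RD alone. A further 46.7% lay between genes, 32.5% in introns and 2.68% in exons. The median distance to the nearest start site was 29.7 kb, and 255 members lay over 100 kb from any. Restricted to sequence with under 50% repeat and a strength of 3 to 5, promoters still made up 43.4% (36.2 to 50.8%) of the members and 71.9% (70.4 to 73.3%) of the regions in all 3 diets. CpG dinucleotides were sparse in the members, with a median observed to expected ratio of 0.336 against 0.641 in the regions of all 3 diets, and a median GC content of 53.2% against 59.2%. The ratio was 0.352 in regions of RD and HFD-O304 without HFD and 0.251 in those of RD alone.

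Repeats made up a large part of the set. In all, 394 members (42.3%, 39.1 to 45.5%) were repeat-rich, compared with 17.6% of all regions and 10.2% of the regions in all 3 diets, and 307 members were repeat-masked over their whole length. The share was 32.9% (29.1 to 37.0%) for RD and HFD-O304 without HFD and 45.99% (43.0 to 48.97%) for RD alone. For HFD and HFD-O304 without RD the share was 15.0% (13.8 to 16.3%). It was higher in stronger members, from 33.9% at 2 to 3 to 48.4% at 3 to 5 and 68.6% (58.2 to 77.4%) at 5 or more, whereas in the regions of all 3 diets it was 16.7% at 2 to 3 and 8.16% at 5 or more. Regions of RD and HFD-O304 without HFD showed the same rise, with 23.1%, 40.9% and 71.2%. The 4 strongest members were repeat-rich. A region of 806 bp between genes near Mup7, a major urinary protein gene, had −log10 q values of 27.7 in RD and 21.3 in HFD, and one near Nectin3 had 27.1 and 15.4. Further strong repeat-rich members lay near Esp8 (15.9 and 23.1), Fhl5 (15.4 and 14.7) and Atp10a (11.8 and 11.95). Short reads cannot be placed with certainty among copies of a repeat, and how the aligner shared them between copies was not tested.

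**Figure D3:**
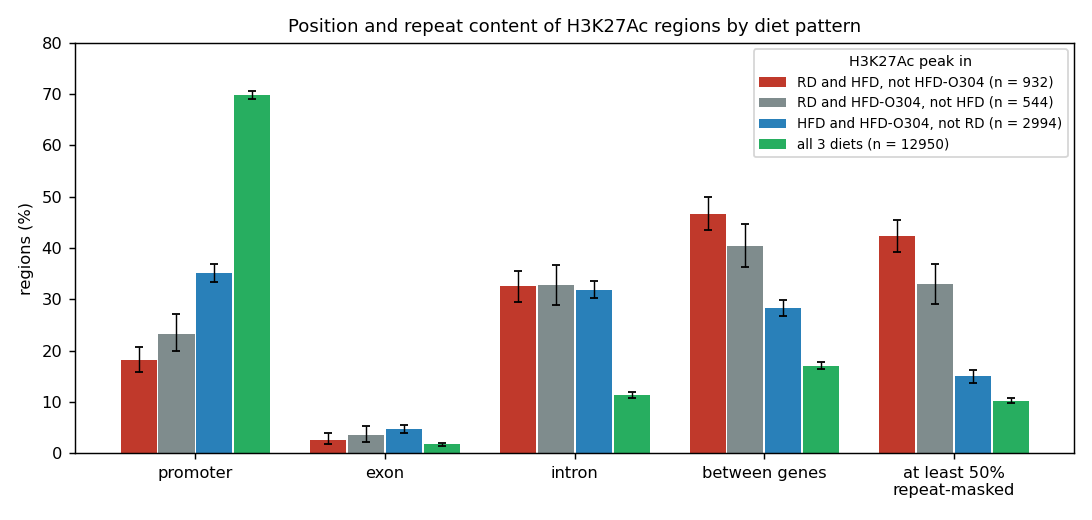
Share of regions (y, percent) at promoters, in exons, in introns, between genes and with at least 50% repeat-masked bases, for the members (red) and the other patterns of H3K27Ac peaks; bars are 95% Wilson intervals. The members have the lowest promoter share (18.1%) and the highest repeat-rich share (42.3%) of the 4 patterns drawn.

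Repeat-rich members often carried the same sequence. Of the 394, 378 (95.9%) shared at least 1 run of 31 bases with another H3K27Ac region, as did 27.5% of the members with under 50% repeat. In the regions of all 3 diets the 2 shares were 93.3% and 26.5%. The 3 runs shown are the most frequent in these members whose carriers overlapped little with those of a more frequent run, each located in 1 member and written wholly in capitals. The first, from chr16:60747318-60747348, occurred in 81 repeat-rich members, the second, from chr10:103575329-103575359 on the minus strand, in 64, and the third, from chr2:14376673-14376703, in 21.
Run 1: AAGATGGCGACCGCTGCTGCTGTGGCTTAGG
Run 2: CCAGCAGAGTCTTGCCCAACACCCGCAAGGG
Run 3: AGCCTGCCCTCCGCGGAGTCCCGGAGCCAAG
None of the 3 runs was confined to the members. The first was found in 749 regions of any pattern, 223 of them present in all 3 diets. The second was found in 533, 102 of them present in all 3 diets, and the third in 162, with 32. All 81 repeat-rich members with the first run overlapped an H3K27Me3 peak of every diet, as did 58 of the 64 with the second and 20 of the 21 with the third. Such overlap in every diet was found at 54.8% of all repeat-rich members and at 70.4% of the repeat-rich regions in all 3 diets.

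H3K27Me3 gave a readout that did not enter the choice of members. Its lists rested on 74870300 RD, 54166902 HFD and 57324419 HFD-O304 fragments. The lowest folds in them were 2.53, 2.76 and 2.69, so the calling limit of this mark differed between the diets. Peaks of this mark overlapped 38.6% (35.6 to 41.8%) of the members with RD, 36.7% with HFD and 36.9% with HFD-O304, beside 20.0%, 19.3% and 19.7% of all H3K27Ac regions. Among repeat-rich members the shares were 64.97% (60.1 to 69.5%), 63.5% and 62.4% (57.6 to 67.1%), against 67.97%, 66.96% and 68.1% (66.7 to 69.5%) of all repeat-rich regions. Among members with under 50% repeat the shares were 19.3% (16.2 to 22.9%) in RD, 17.1% in HFD and 18.2% (15.2 to 21.7%) in HFD-O304, while all regions with under 50% repeat gave 9.82%, 9.16% and 9.43% (9.05 to 9.84%), and the regions of all 3 diets 8.03%, 7.13% and 6.93%. At promoters with under 50% repeat, H3K27Me3 of HFD-O304 lay over 35 of 167 members (20.96%, 15.5 to 27.7%) and over 2.96% of the regions of all 3 diets. Promoter regions of other incomplete patterns also had higher shares than the latter, with 8.66% for RD and HFD-O304 without HFD, 14.5% for HFD and HFD-O304 without RD, 18.4% for RD alone, 27.2% for HFD alone and 24.9% for HFD-O304 alone. Outside promoters the values were 17.0% (13.5 to 21.1%) of members and 20.8% (19.2 to 22.4%) of the regions of all 3 diets, whose intervals overlapped.

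**Figure D4:**
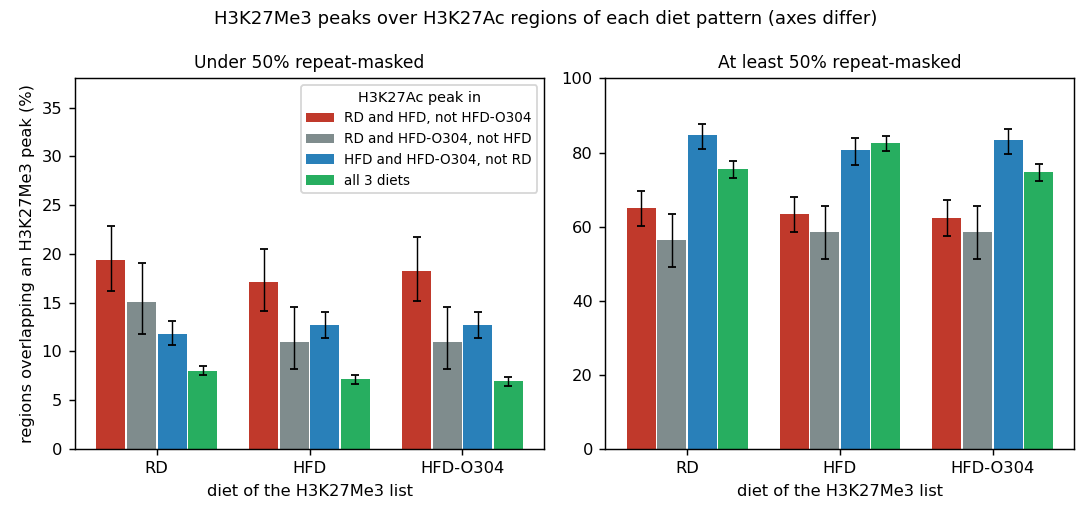
Share of H3K27Ac regions that overlap an H3K27Me3 peak of each diet (y, percent), for regions with under 50% (left) and at least 50% (right) repeat-masked bases; bars are 95% Wilson intervals and the y axes differ. The members (red) stand at 17.1 to 19.3% on the left in all 3 diets, with overlapping intervals.

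The H3K27Me3 state was the same in every diet at 814 members (87.3%, 85.05 to 89.3%), fewer than the 92.4% (92.1 to 92.7%) of all regions. Other incomplete patterns were also below the 95.3% of the regions in all 3 diets. The share was 88.1% (85.1 to 90.5%) for RD and HFD-O304 without HFD and 91.8% for HFD and HFD-O304 without RD. It was 86.4% for RD alone, 87.5% for HFD alone and 91.6% for HFD-O304 alone. In all, 287 members overlapped H3K27Me3 in all 3 diets and 527 in none. H3K27Me3 in HFD-O304 only was found at 10 members (1.07%, 0.584 to 1.96%) and at 0.951% of all regions, beside 19 members in RD only and 22 in HFD only, although the HFD-O304 list of this mark was the longest with 20289 peaks on these chromosomes against 14286 and 14254. The strongest of the 10 was at the promoter of Shc4, an adaptor of receptor tyrosine kinases, with H3K27Ac −log10 q values of 4.74 in RD and 4.56 in HFD. The others included intronic regions of Vps13b, Pcca and Slc36a4 and repeats near Reep3 and Obox5.

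The 169 promoter members lay at 176 genes, since 7 of them served more than 1 gene. At 151 of these genes no start site had an HFD-O304 peak within 1000 bp, and at 25 an HFD-O304 peak lay in such a window. The 12 strongest with under 50% repeat had no H3K27Me3 in any diet, and 9 of them had a higher −log10 q in HFD than in RD. The HFD list was deeper, which raises −log10 q at equal fold. By fold 7 of the 12 were higher in HFD, and by pileup scaled to the fragments kept after filtering 6. Zfyve1, which encodes a lipid-binding protein of the endoplasmic reticulum and lipid droplets, was first at chr12:83596589-83597126 with 8.21 in RD and 9.47 in HFD. Hltf, a helicase-like DNA repair factor, had 6.51 and 8.78, and Mfsd3, a putative membrane transporter, had 9.12 in HFD. Ift43, a component of intraflagellar transport in cilia, had 5.67 and 6.92. Regions at Commd10, Secisbp2l, Wwox, Ncoa4, Zfp235, Clp1 and Xylb, and at the start sites shared by Trappc13 and Trim23, completed the 12, with a strength of 5.13 to 5.62. For Ncoa4, the ferritinophagy receptor, an HFD-O304 peak lay within 1000 bp of a start site, and for the other 11 none did.

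Among the 15 strongest members with under 50% repeat, 6 were at promoters and 13 had the higher −log10 q in HFD. By fold 9 of the 15 were higher in HFD, and by pileup scaled to the fragments kept after filtering 7, beside 28.4% of all members. The first was a 312 bp region between genes, 89.3 kb from the start site of Barhl2, with 12.01 in RD and 15.9 in HFD. It overlapped H3K27Me3 in all 3 diets. An 1115 bp region of Wbp11, a splicing factor, had 8.83 and 11.9 and no H3K27Me3. A 318 bp region of Thap1, a zinc finger transcription factor, had 6.25 and 6.98, and 317 of its bases were coding. Regions in introns of Bckdhb, Pip5k1b and Ypel2 were also among the 15. Of all members, 26 (2.79%) had at least 50% of their bases in coding exons, beside 3.42% of the regions of all 3 diets.

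Genes of islet function were described through lists of 337 genes, of which 328 were matched. Of these, 20 (6.10%) had a member at the promoter, in the gene, or between genes with its nearest start site within 50 kb, compared with 3.11% of all protein-coding genes. Counted by region, 21 of the 788 H3K27Ac regions tied to listed genes were members (2.66%, 1.75 to 4.04%), against 3.66% of all regions. The 21 members were modest in strength, none with both −log10 q values of 5 or more and 10 with the lower under 3. Of the 20 genes, 17 had an HFD-O304 peak at a promoter, and Ins1, G6pc2 and Cd36 did not. Of these 3, G6pc2 and Cd36 had no promoter peak in RD or HFD either.

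The insulin gene Ins1 was the listed gene with the strongest member. Ins1 arose from a retroposed copy of Ins2, and rodents express both. Its region at chr19:52264533-52264964 had an RD peak from 0.248 to 0.588 kb after the gene start, 2.70-fold enriched (−log10 q 4.41). Its HFD peak ran from 0.236 to 0.667 kb, 2.96-fold enriched (−log10 q 7.17). No other H3K27Ac region of any diet lay in the gene or within 1 kb of it, and the nearest HFD-O304 peak was 309 kb away. The region started 236 bp after the start site, and 324 of its 432 bases were coding. At Ins2, by contrast, a region at the promoter had peaks in all 3 diets, with folds of 2.65, 2.62 and 2.60. Of the 402 runs of 31 bases in the Ins1 region, 45 were also found at Ins2, as were 7 of 383 runs of 50 bases, the read length, and how reads were shared between the genes was not tested. Pcsk2, the prohormone convertase, had an intronic member (3.44 in RD and 2.95 in HFD) that overlapped H3K27Me3 in all diets, among 10 regions in the gene, 5 of them with an HFD-O304 peak. Ins1 and Pcsk2 belong to the list of hormones and granule proteins. Of the 74 regions tied to that list, 2 were members (2.70%, 0.744 to 9.33%), beside 3.66% of all regions.

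The list of glucose sensing, channel and exocytosis genes had members at 7 of 36 genes, and 7 of the 164 regions tied to it were members (4.27%, 2.08 to 8.55%, an interval that includes the 3.66% of all regions). Abcc8, the sulfonylurea receptor of the ATP-sensitive potassium channel, had 12 H3K27Ac regions, 10 of them with an HFD-O304 peak. The member at chr7:46150934-46152063, 28.5 kb into the gene, had −log10 q values of 2.47 in RD and 3.003 in HFD, and an HFD-O304 peak lay 3.52 kb from it. G6pc2, the islet glucose-6-phosphatase that opposes glucokinase, had a member of mostly coding bases (469 of 610), 15.8 kb into the gene, with 3.57 and 3.33, and an HFD-O304 peak 4.04 kb away. Cacna1a, which forms the pore of P/Q-type calcium channels, had an intronic member with 2.63 in RD and 8.20 in HFD. This was the widest gap in −log10 q between the diets among the listed members. Its folds were 2.38 in RD and 3.09 in HFD. By fold the gap was wider, and in the other direction, at the listed member near Sel1l, with 3.24 in RD and 2.45 in HFD. Cacna1c, of L-type calcium channels, had 3.35 and 3.32 at a region 119 bp from an HFD-O304 peak. Kcnma1, a calcium-activated potassium channel, had 4.43 and 3.54, and Syt7, a calcium sensor of exocytosis, had 2.76 and 2.57. Cadps, which primes dense-core vesicles, had 4.31 and 5.06 at a region with 77.6% repeat bases and H3K27Me3 in all diets.

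Islet transcription factors had members at 3 of 28 genes. Counted by region, 4 of the 84 tied to this list were members (4.76%, 1.87 to 11.6%), an interval that includes the 3.66% of all regions. Pax6, needed for endocrine differentiation and β-cell identity, had 3 H3K27Ac regions, 2 of them with an HFD-O304 peak, and its member was a 543 bp region 21.1 kb into the gene (2.89 in RD and 2.60 in HFD), 1.48 kb from an HFD-O304 peak. Bach2 had 2 members, in introns, with 3.55 and 3.81 at the stronger, and Tshz1 had 1, with 3.76 and 5.31. Among receptors that tune secretion, the α2A-adrenergic receptor gene Adra2a, whose activation inhibits insulin release, had a member at chr19:54039683-54041474, 2.68 kb upstream of the gene, with 2.85 and 3.15. The gene itself had 1 region, with peaks in all 3 diets, and the nearest HFD-O304 peak lay 3.06 kb from the member. Of the 33 regions tied to the receptor list, 1 was a member (3.03%, 0.537 to 15.3%).

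The remaining lists held at most 3 members each. Lipid metabolism had 2 of 26 genes, among them, at a repeat, the fatty acid transporter Cd36 (2.14 in RD and 2.57 in HFD). The unfolded protein response had 1 of 25, a repeat near Sel1l, and insulin and FoxO signalling 1 of 16, a promoter of the kinase subunit Pik3r1 (2.42 in RD and 5.14 in HFD). Clock and immediate early genes had 3 of 27, with Fos (3.81 and 3.74), Rora (3.05 and 3.86) and Cry2 (2.55 and 3.08). Counted by region, members were 4.84% (1.66 to 13.3%) of those tied to the clock list and 3.70% (1.02 to 12.5%) of those tied to lipid metabolism. For the unfolded protein response and for insulin and FoxO signalling the share was 2.50% (0.443 to 12.9%) each. All these intervals include the 3.66% of all regions. No member fell at the 24 genes of AMPK, mTORC1 and autophagy, the 16 of oxidative stress, the 21 of dedifferentiation and disallowed genes, the 22 of the cell cycle or the 23 of H3K27 writers and erasers. With 75 regions tied to the AMPK list, 0 members leaves an interval of up to 4.87%, which includes the 3.66% of all regions. The intervals of the other lists without a member include it too. They reach 12.1% for oxidative stress (28 regions), 14.3% for dedifferentiation and disallowed genes (23), 10.4% for the cell cycle (33) and 5.35% for H3K27 writers and erasers (68).

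**Figure D5:**
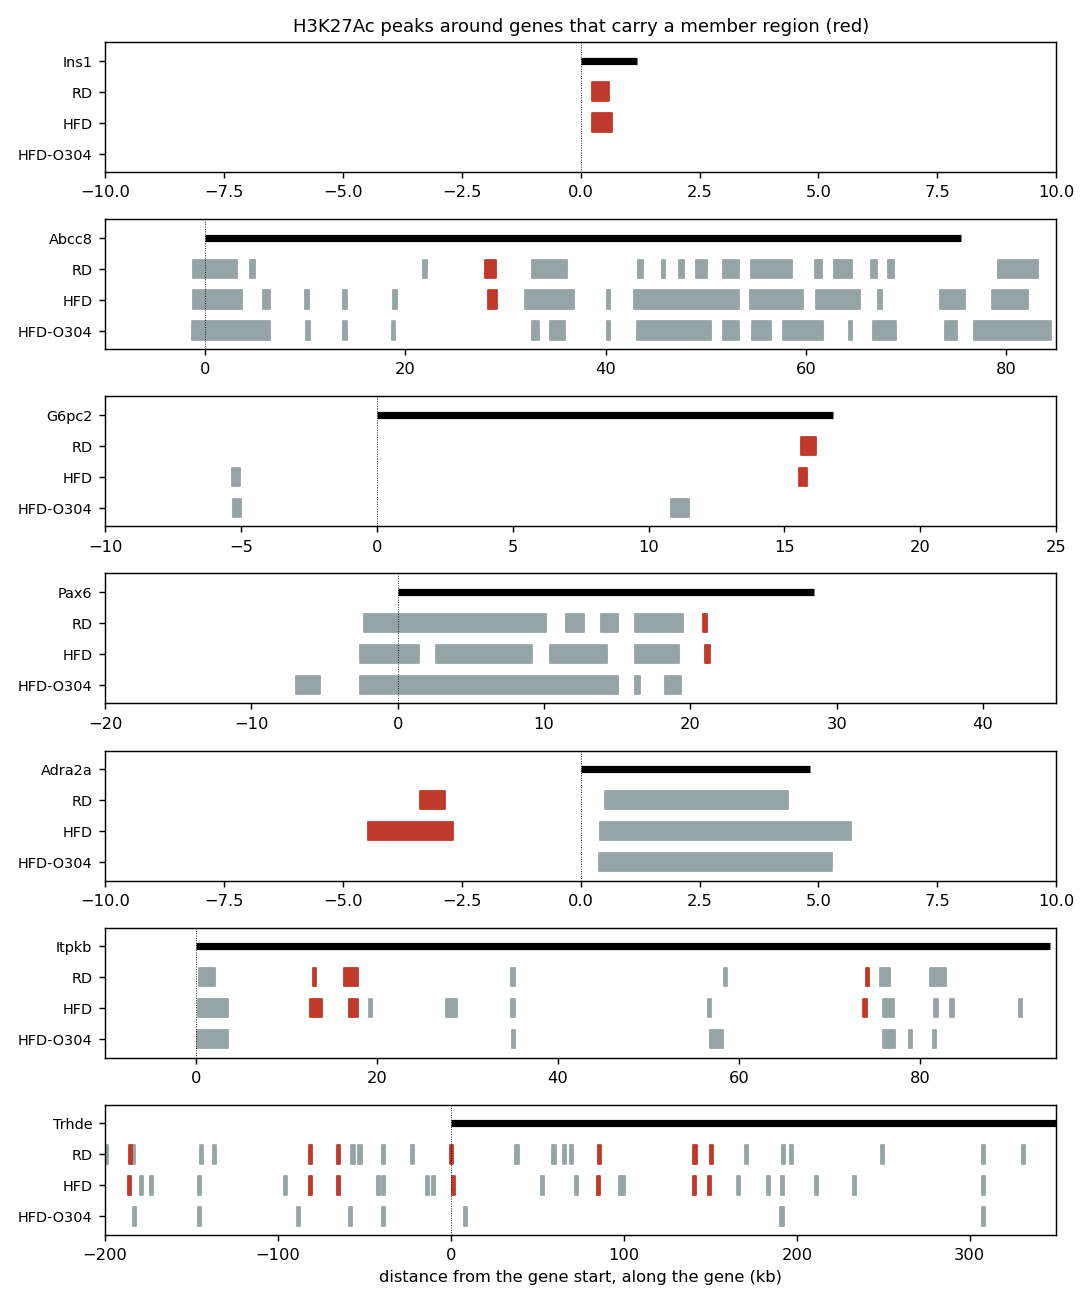
H3K27Ac peaks in RD, HFD and HFD-O304 (rows) by distance from the gene start along the gene (x, kb) for 7 genes, with the gene as a black bar, member regions in red and other peaks in grey; the narrowest bars are widened to be visible. At Abcc8, Pax6 and Adra2a the members lie beside peaks kept in HFD-O304, and at Itpkb they lie 1.52, 8.97 and 12.8 kb from the nearest one. At Ins1 no other peak is present, and across Trhde few HFD-O304 peaks remain.

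Members were spread over all 19 chromosomes, from 2.53% of regions on chromosome 5 to 5.45% on chromosome 14. In 1 Mb windows, 727 of the 2346 windows with a region held a member, and 8 held 4 or more. Of 486 genes with a member at the promoter or in the body, 458 had 1, 24 had 2 and 4 had 3 or more. Itpkb, an inositol trisphosphate kinase, had 3 among 14 regions, 6 of which had an HFD-O304 peak. Dnah8, an axonemal dynein, had 4 among 55. C130026I21Rik had 5 among 18, all 5 with H3K27Me3 in all diets.

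Trhde, which encodes the enzyme that degrades thyrotropin-releasing hormone, had 4 members, including its promoter (3.56 in RD and 2.17 in HFD). Over the gene and 1 kb on either side, 14 regions had an RD peak, 14 an HFD peak and 3 an HFD-O304 peak. The same held for the 1 Mb window around it (chr10:114000001-115000000), which was chosen after its values were seen. There, 24 regions had an RD peak, 25 an HFD peak and 8 an HFD-O304 peak. Only 3 regions of the window were common to the diets, 7 were members, 13 had RD alone and 14 HFD alone. The excess of RD and HFD regions over HFD-O304 regions was thus 16, and the next largest excess of any window was 4. The median fold of the window was 2.49 for RD, 2.28 for HFD and 2.36 for HFD-O304, and the highest RD fold was 5.30. Of H3K27Me3, the window held 41 RD, 21 HFD and 48 HFD-O304 peaks, from lists whose calling limits differed.

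The distance from a member to the nearest HFD-O304 peak had a median of 34.8 kb. It was up to 1 kb for 13 members (1.39%), over 1 and up to 5 kb for 138 (14.8%), and over 100 kb for 227 (24.4%). In regions with RD and HFD-O304 peaks and no HFD peak, the median distance to the nearest HFD peak was 27.3 kb, and in those with HFD and HFD-O304 peaks and no RD peak it was 24.5 kb to the nearest RD peak.

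Short sequence motifs were counted on both strands in the central 300 bp of each region, as letters only. Shares of all regions given here include promoters and repeat-rich sequence, so they are not matched to the subsets beside them. Outside promoters and with under 50% repeat, the AP-1 motif TGANTCA was found in 36 of 371 members (9.70%, 7.09 to 13.1%). It was found in 8.44% of the regions of all 3 diets in the same subset, and in 5.44% of all regions. The NeuroD E-box CAGATG was found in 24.0% of members and 21.5%, against 16.6% of all regions. Both intervals overlapped those of the regions of all 3 diets. The GC box GGGCGG was at 10.8% (8.02 to 14.3%) of members and 21.1% (19.5 to 22.7%), and at promoters it was found in 49.1% (41.6 to 56.6%) and 59.97% (59.0 to 61.0%), against 35.1% of all regions. Regions of RD and HFD-O304 without HFD gave 10.5% (7.22 to 15.0%) and 40.2% (32.0 to 48.9%). The forkhead motif TGTTTAC was found in 5.93% (3.95 to 8.81%) of the members outside promoters and 4.08% (3.39 to 4.91%) of the regions of all 3 diets. The RFX motif GTTGCCA was found in 5.39% (3.52 to 8.18%) and 4.51% (3.77 to 5.37%), and the intervals overlapped for both motifs. Among all regions the forkhead motif was at 2.66% and the RFX motif at 3.12%. In the printed stretches, the capitals are CATCTG in Ins1 (the E-box read on the other strand), ATTGG in Abcc8 and Zfyve1 (the CCAAT box read on the other strand, in 26.8% of all regions), and TAATTA (homeodomain, 2.66%) and CACGTG (5.36%) in Adra2a.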

How the data were processed

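Paired-end reads (50 bp) of 12 ChIP samples (2 marks, 3 diets, 2 replicates each) were mapped by the authors to GRCm38 with Bowtie2, replicates were merged and broad peaks called with MACS 2.1.2. Per the file headers, the q cutoff was 0.01, no control was given and the background was uniform. The 3 input samples were not used here. The deposited lists give the mean pileup (coverage signal) per peak, the −log10 q, and the fold enrichment, a ratio to the uniform background. Fragments kept after filtering ranged from 83773042 to 95218072 for H3K27Ac. A deeper list has a lower calling limit, so folds near it are not comparable between lists.

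Peaks on chromosomes 1 to 19 were joined at 1 bp of overlap with Python 3 scripts (numpy and pandas), tested on simulated peaks. Genes came from GENCODE mouse release 21 and repeats from the soft-masked GRCm38 genome. Wilson intervals were computed with scipy. The members and gene lists were chosen with earlier results of these data known. Named members were the 15 strongest with under 50% repeat, the 5 strongest repeat-rich, the 12 strongest at promoters, the 6 longest, all tied to a listed gene (up to 25), the 6 strongest with H3K27Me3 in HFD-O304 only, genes with 3 or more, and the 3 regions on either side of the rule's edge. The values of 1 listed gene are not reported here. Alternatives changed the strength needed, the fold cutoff, the list sizes, the joining, the chromosomes, the repeats, the promoter window and the overlap with H3K27Me3.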

Additional observations from a re-analysis of the deposited data

How the results depend on the processing

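No paired analysis was possible because replicates were merged before peak calling, which also meant that leave-one-out values do not exist. Of 73 alternative values, 33 stayed within 1.5 times the count or within the 95% interval of the main value, and 40 did not. With a −log10 q of at least 5 in every list, there were 450 members, with a median strength of 5.66, 52.9% at promoters, 31.6% between genes, 23.1% with H3K27Me3 in any diet (43.5% in the main set), 27.3% repeat-rich, 0% within 1000 bp of an HFD-O304 peak and 6.28% of RD and HFD regions absent in HFD-O304. These include regions with a weaker HFD-O304 peak. With 5 or more in RD and HFD and no HFD-O304 peak at all, the values were 86, 5.68, 15.1%, 62.8%, 36.0%, 68.6%, 0% and 1.20%. With absence taken as an HFD-O304 −log10 q under 3, they were 1694 members, 22.9% at promoters, 42.3% between genes, 38.9% with H3K27Me3, 33.2% repeat-rich, 0.354% near an HFD-O304 peak and 12.2% absent. The common fold cutoff of 2.28 gave a median strength of 3.09 and 5.95% absent. Lists of 15847 peaks each gave 3.32, 25.9% at promoters, 43.3% between genes, 37.6% with H3K27Me3, 35.4% repeat-rich, 0.192% near and 8.22% absent. Joining at 50% of the shorter peak put 6.51% near an HFD-O304 peak. Without repeat-rich peaks there were 545 members, 2.82, 30.8% at promoters, 29.0% between genes, 23.7% with H3K27Me3 and 4.51% absent. Requiring H3K27Me3 over at least 50% of the region gave 40.1%. By construction these settings change which peaks count. Further causes were not tested.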

Other observations

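The longest members were not the strongest. The 6 longest, of 3088 to 3896 bp, lay between genes near Zfp868, in or beside exons of Rps6ka2 and in introns of Celf4, Dop1b, Ube4b and Foxn3. Their −log10 q values ran from 2.28 to 3.93 in RD and from 2.51 to 3.84 in HFD. Zfp868 was the exception for H3K27Me3, with peaks in all 3 diets, and the other 5 had none. Celf4, an RNA-binding protein of neuroendocrine cells, had 16 H3K27Ac regions, of which 10 had an RD peak, 12 an HFD peak and 12 an HFD-O304 peak. Rps6ka2, a ribosomal S6 kinase, had 16, with 4, 11 and 9.

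The same pattern, RD and HFD without HFD-O304, was found outside the autosomes at 44 of 489 regions on the X chromosome, 7 of 60 on the Y and 13 of 254 on other sequences of the build. On the autosomes the pattern was found at 932 of 25452 regions (3.66%), and the highest share was on chromosome 14 (54 of 990, 5.45%). The shares on the X and the Y were above that of every autosome. The share on other sequences lay between 3.66% and 5.45%. The cause was not tested. At the level of genes, 158 of 20698 had a promoter peak in RD and HFD and none in HFD-O304, beside 109 with RD and HFD-O304 but not HFD and 960 with HFD and HFD-O304 but not RD.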
